A study of Mus musculus with 6 samples.

Results

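The 40 cell cycle genes described here were taken by symbol from the 24421 genes of the count table, 20 of them acting in G1 and S phase (called G1/S) and 20 in G2 phase and mitosis (called G2/M). All 40 were found and all 40 passed the filter on low counts that left 14362 genes for testing. Their transcripts were read by bulk RNA-seq in retinal endothelial cells of mouse pups with a mixed BL6/CD1 background, which received tamoxifen at postnatal day 1 and were collected at postnatal day 7. All 6 samples carried floxed Smad4, whose protein relays both BMP and TGF-beta signals to the nucleus. The 3 Smad4-iECKO samples also carried Cdh5-CreERT2, a tamoxifen-activated Cre recombinase driven by the promoter of the endothelial cadherin gene, while the 3 Smad4f/f samples lacked Cre per the series' design. The comparison of the genotypes asked which of these transcripts differ after deletion of Smad4 from the endothelium. The labels do not say whether a sample came from 1 pup or several, so p-values measure only the spread between these samples. In bulk samples fewer dividing cells and less of a transcript per cell cannot be told apart.

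Cell cycle transcripts are made in waves. In late G1 the D and E cyclins with their kinases inactivate the RB protein, E2F factors are freed, and genes for origin licensing and DNA synthesis are switched on. The mitotic genes, which carry CHR and CCAAT promoter elements, are held down by the DREAM complex in resting and early G1 cells and are activated later by B-MYB and FOXM1 with the MuvB core. In the retina at this age the vascular plexus is still spreading, endothelial cells divide behind the sprouting front, and most neurons have left the cycle.

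The promoters of the members, which the choice by symbol did not use, carried different motifs in the G1/S and G2/M classes. RefSeq promoter windows (GRCm38.p6, 300 bases, from 250 before to 50 after the start) were matched for 30 members, 14 G1/S and 16 G2/M. A gene with several windows counted as carrying a motif if any of its windows held it. The letters searched on both strands were TTTGAA and TTCGAA for the CHR, CCAAT for the CCAAT box, and TTTGGCGC, TTTCCCGC, TTTCGCGC and TTTGCCGC for the E2F site. A CHR was present in 12 of 16 G2/M members (75%) and in 2 of 14 G1/S members (14.3%), beside 21.7% of 27025 genes with a window. A CCAAT box was present in 14 of 16 G2/M members (87.5%) and 9 of 14 G1/S members (64.3%), beside 41.1% of all genes. An E2F site was present in 6 of 14 G1/S members (42.9%) and in 1 of 16 G2/M members (6.25%), beside 2.6% of all genes. A match describes these letters and is not a binding site. The 200 bases before the start of 3 G2/M and 2 G1/S members are printed to show both arrangements, with the matches in capitals. CCAAT read on the other strand appears as ATTGG, and TTTGAA as TTCAAA, and 2 overlapping E2F matches form 1 longer capital run. The windows, placed by RefSeq's starts, are chr10:69352913-69353112 (minus strand) for Cdk1, chr9:70421555-70421754 (minus) for Ccnb2, chr11:99024190-99024389 (minus) for Top2a, chr8:75109309-75109508 (plus) for Mcm5 and chr1:128359706-128359905 (minus) for Mcm6.
Cdk1: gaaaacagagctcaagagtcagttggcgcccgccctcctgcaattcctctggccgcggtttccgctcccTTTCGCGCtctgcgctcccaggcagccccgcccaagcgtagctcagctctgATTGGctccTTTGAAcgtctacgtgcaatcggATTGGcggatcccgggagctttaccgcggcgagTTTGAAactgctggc
Ccnb2: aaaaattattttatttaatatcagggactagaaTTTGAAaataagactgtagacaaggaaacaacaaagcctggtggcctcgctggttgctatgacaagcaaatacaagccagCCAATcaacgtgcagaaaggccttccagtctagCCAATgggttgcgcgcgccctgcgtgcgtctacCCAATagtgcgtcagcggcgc
Top2a: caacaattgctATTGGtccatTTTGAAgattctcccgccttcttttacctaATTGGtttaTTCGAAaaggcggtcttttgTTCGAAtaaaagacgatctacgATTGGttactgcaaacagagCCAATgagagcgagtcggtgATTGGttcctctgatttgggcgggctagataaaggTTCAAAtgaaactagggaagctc
Mcm5: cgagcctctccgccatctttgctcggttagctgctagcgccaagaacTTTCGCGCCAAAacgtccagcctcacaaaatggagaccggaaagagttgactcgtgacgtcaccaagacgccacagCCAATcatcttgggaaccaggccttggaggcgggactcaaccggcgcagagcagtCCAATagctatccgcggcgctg
Mcm6: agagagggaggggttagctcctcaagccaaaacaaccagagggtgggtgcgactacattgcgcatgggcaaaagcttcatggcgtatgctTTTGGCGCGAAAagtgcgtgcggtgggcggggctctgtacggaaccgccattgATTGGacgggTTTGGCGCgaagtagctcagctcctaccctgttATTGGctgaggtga
In Cdk1, the mitotic kinase gene, CHR and CCAAT matches alternate, and an E2F match lies upstream. The last 26 bases of this window, with the CHR match nearest the start, lie inside the gene as GENCODE M21 places it. In Ccnb2 and Top2a only CHR and CCAAT matches were found, and in the helicase genes Mcm5 and Mcm6 only E2F and CCAAT matches.

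**Figure D1:**
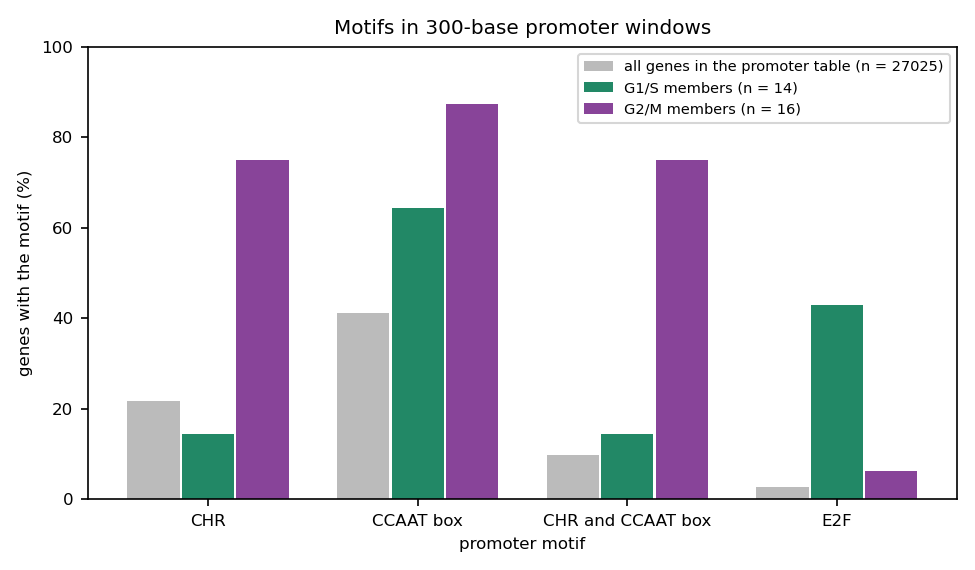
Share of genes (vertical axis, percent) with each motif (horizontal axis) in any of their 300-base promoter windows, for all 27025 genes with a window (grey), 14 G1/S members (green) and 16 G2/M members (purple). For a gene with several windows, the CHR and the CCAAT box could lie in different ones. The CHR with a CCAAT box is found in 75% of the G2/M members and 9.65% of all genes, and the E2F letters in 42.9% of the G1/S members and 2.6% of all genes.

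Total counts ran from 2233360 to 23164952 per library. Smad4-iECKO replicate 2 was the shallowest, and 1 of its reads was worth 0.465 CPM (the count scaled to a common library size with TMM factors) against 0.0412 to 0.0797 CPM in the other libraries. Of 9396 genes at 10 CPM or more in all other libraries, 53 had no read in this library, against at most 1 in each of the others. Of the members, Aurka and Nusap1 had no read in this library, and a count of 0 there allows up to 1.39 CPM, counting error only. The targeted gene Smad4 ranged from 109.5 to 157.5 CPM in the controls and from 93.9 to 133.9 CPM in Smad4-iECKO, with overlap, so its gene-level count does not check the genotype. The 18 endothelial markers, among them Cdh5 and Pecam1, made up 0.901%, 0.184% and 0.539% of the control counts and 0.306%, 0.569% and 0.498% of the Smad4-iECKO counts, in the order of replicates 1, 2 and 3. No endothelial marker was at 0 in any library.

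The G2/M genes spread widely among the Smad4f/f libraries. They were highest in Smad4f/f replicate 1 and lowest of the controls in Smad4f/f replicate 2. Smad4f/f replicate 1 held the highest level of all 6 libraries for 18 of 20 G2/M members (90%), where 26.5% of all tested genes were highest in that library. Smad4f/f replicate 2 was the lowest control for 20 of 20 G2/M members, against 33.6% of all tested genes. The ratio of the first to the second of these control libraries ran from 3.07 for Plk1 to 28.5 for Ube2c, with a median of 5.38 over the G2/M members and 1.01 over all tested genes.

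Mki67, whose protein coats mitotic chromosomes and marks dividing cells, was at 253, 38.5 and 105.8 CPM in the control replicates 1, 2 and 3. In Smad4-iECKO replicates 1, 2 and 3 it was at 119, 59.0 and 136.8 CPM. The controls thus spanned more than the whole range of the Smad4-iECKO libraries. Top2a, the topoisomerase that untangles replicated chromosomes, was at 218.6, 29.8 and 73.3 CPM in the controls and 75.7, 75.8 and 101.1 CPM in Smad4-iECKO, again with all Smad4-iECKO values inside the control range.

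The mitotic kinase and its cyclins behaved alike in the controls. Cdk1 (chromosome 10, 69335146 to 69352938, minus strand, mm10) was at 47.7, 7.12 and 18.03 CPM in the controls and at 15.8, 6.97 and 16.9 CPM in Smad4-iECKO, in the same order of replicates. Ccnb1, the B-type cyclin that triggers entry into mitosis, was at 22.9, 4.36 and 5.76 CPM against 7.998, 11.2 and 11.1 CPM. Its partner Ccnb2 was at 23.1, 4.36 and 10.6 CPM against 8.83, 7.44 and 9.49 CPM. Ccna2, cyclin A2 of S phase and G2, was at 81.5, 24.9 and 35.2 CPM against 44.04, 28.8 and 50.1 CPM. For each of these 4 genes the highest library was Smad4f/f replicate 1.

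The checkpoint and mitotic kinases followed the same order among the controls. Bub1, a kinetochore kinase of the spindle checkpoint, was at 40.3, 4.61 and 11.4 CPM in Smad4f/f and 11.1, 5.58 and 16.7 CPM in Smad4-iECKO replicates 1, 2 and 3. Its relative Bub1b, which encodes BUBR1, was at 43.2, 8.23 and 23.6 CPM against 29.4, 13.9 and 22.8 CPM. Aurkb and Birc5 encode the kinase and the survivin subunit of the chromosomal passenger complex. Aurkb was at 20.7, 3.91 and 9.28 CPM against 6.22, 5.58 and 10.4 CPM, and Birc5 at 21.1, 3.09 and 5.84 CPM against 6.33, 1.86 and 7.57 CPM. The centrosomal kinase gene Aurka was at 15.2, 3.79 and 4.79 CPM against 6.22, 0 and 6.22 CPM. Plk1, polo-like kinase, kept this order among the controls, at 15.8, 5.14 and 11.7 CPM against 8.28, 17.2 and 15.6 CPM, but had its highest value in Smad4-iECKO replicate 2 (37 reads).

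Spindle genes showed the spread of the controls as well. Cenpe, a kinetochore motor, was at 71.99, 12.6 and 22.5 CPM in the controls and at 27.9, 20.9 and 35.1 CPM in Smad4-iECKO. Kif11, the motor that separates spindle poles, was at 71.5, 14.2 and 28.2 CPM against 23.2, 21.4 and 41.6 CPM. Tpx2, which activates Aurora A on spindle microtubules, was at 55.9, 8.89 and 24.2 CPM against 21.9, 10.7 and 26.2 CPM. All 3 have their highest level in Smad4f/f replicate 1. The kinetochore gene Cenpf was at 64.97, 11.9 and 24.99 CPM against 33.2, 47.4 and 33.2 CPM, and the cytokinesis motor gene Kif20a at 28.5, 5.84 and 14.96 CPM against 12.8, 13.02 and 18.6 CPM. Nusap1, a spindle-bundling protein, was at 36.3, 4.69 and 12.4 CPM against 11.4, 0 and 14.8 CPM. Cdc20 and Ube2c serve the anaphase-promoting complex, as its activator and its ubiquitin-conjugating enzyme. Cdc20 was at 29.02, 7.32 and 16.9 CPM against 13.1, 35.3 and 16.4 CPM. Ube2c was at 18.8, 0.658 and 1.65 CPM against 3.89, 1.39 and 2.39 CPM, so that its control mean rests on a single library.

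**Figure D2:**
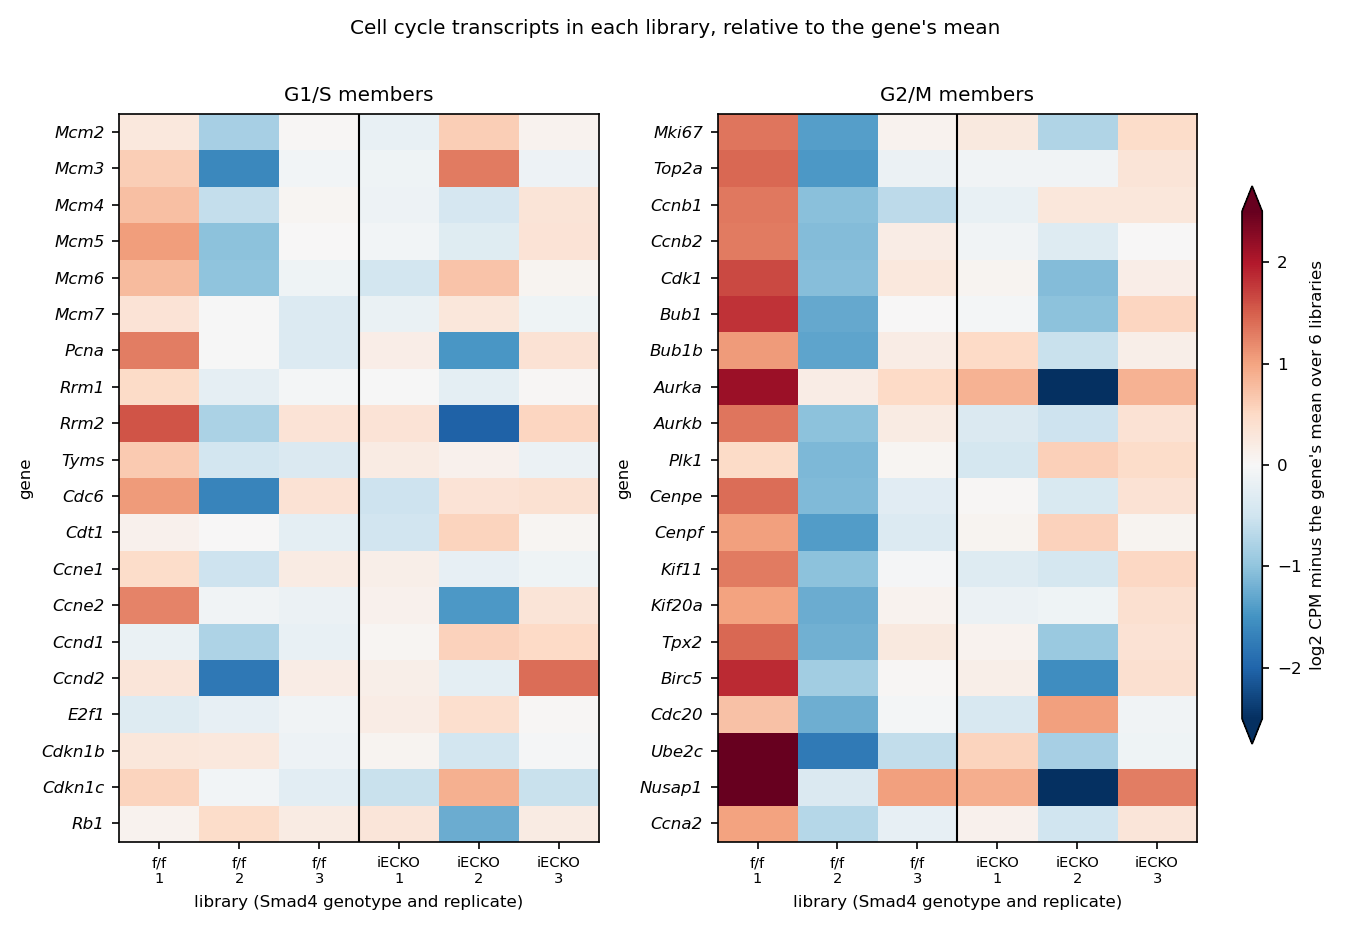
Level of each member (rows) in each library (columns), as log2 CPM minus that gene's mean over the 6 libraries, with colours ending at 2.5 in either direction and a black line between the genotypes. Smad4f/f replicate 1 holds the highest value of 18 of 20 G2/M members and Smad4f/f replicate 2 is the lowest control for all 20, while the G1/S members differ less.

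No G2/M member passed the test between the genotypes. By edgeR's quasi-likelihood test with Benjamini-Hochberg adjustment over 14362 genes, 0 of 20 were called and the smallest adjusted p was 0.9999. At an unadjusted p under 0.05 edgeR and DESeq2 each gave 0 of 20. Over all tested genes edgeR's share was 0% after adjustment and 1.31% at an unadjusted p under 0.05, and DESeq2's unadjusted share was 2.12%. DESeq2 called 0 of 20, beside 0.0766% of all genes. Of the 20 log2 fold changes (Smad4-iECKO over Smad4f/f), 17 were below 0, where 51.8% of all genes were. Their median was -0.37, against -0.017 for all tested genes. The standard errors of the single genes ran from 0.46 to 1.11, larger than most of the differences. The smallest unadjusted p was that of Cdk1, with -0.84 ± 0.65 (log2 fold change ± standard error, 95% interval -2.31 to 0.64, edgeR, unadjusted p = 0.230). For Mki67 it was -0.33 ± 0.61 (interval -1.70 to 1.05, edgeR, unadjusted p = 0.602). Both intervals include a change of more than 2-fold downward, and that of Mki67 also one of more than 2-fold upward. Over the fits that lacked 1 library, Cdk1 without Smad4f/f replicate 2 and Cenpf without Smad4f/f replicate 1 were under an unadjusted edgeR p of 0.05, with log2 fold changes of -1.28 and 1.03.

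The sign of the G2/M median rested on 1 control library and turned between the title prefixes. Leaving out Smad4f/f replicate 1 gave a median of 0.50, and leaving out Smad4f/f replicate 2 gave -0.79. With the shallow Smad4-iECKO replicate 2 left out the median was -0.29. Sample titles begin with Lit38 (4 libraries, 2 per group) or Lit40 (1 library per group), letters the labels do not explain. Among the 4 libraries with prefix 38, 0 of 20 G2/M members lay above 0 and the median was -0.68. Of all genes in that fit 51.1% lay below 0, with a median of -0.0098. In the pair with prefix 40, which has no replicate and no test, 16 of 20 were higher in Smad4-iECKO and the median log2 ratio was 0.67, beside 47.5% of all genes above 0.

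The endothelial markers changed in the same direction as most G2/M genes in both prefix comparisons. With prefix 38, 17 of 18 endothelial markers were below 0 (median -0.96), and in the prefix 40 pair 18 of 18 were above 0 (median 1.75). At an unadjusted edgeR p under 0.05 with prefix 38 were 9 of 18 endothelial markers and 0 of 20 G2/M members, beside 603 of 14600 genes. The mean level of the endothelial markers was 8.58, 6.07 and 7.72 log2 CPM in Smad4f/f replicates 1, 2 and 3 and 6.83, 7.75 and 7.57 log2 CPM in Smad4-iECKO replicates 1, 2 and 3. The mean level of the G2/M members was 5.38, 2.86 and 3.96 log2 CPM in the controls and 4.01, 3.10 and 4.28 log2 CPM in Smad4-iECKO. Subtracting the former from the latter within a library gave -3.20, -3.21 and -3.76 in the controls. The same difference was -2.82, -4.66 and -3.29 in Smad4-iECKO. The controls' span of 2.52 log2 units in G2/M level shrank to less than 1 unit on this scale. In Smad4-iECKO the spread grew instead, from an SD of 0.62 to one of 0.95 (n = 3). In that group replicate 2 had the highest endothelial and the lowest G2/M level. Over all 6 libraries the span was 2.52 before and 1.83 after subtraction, and the lowest value was that of Smad4-iECKO replicate 2. That library's value includes Aurka and Nusap1, which had no read there. Over the 18 other G2/M members, a choice made after seeing the data, its difference was -4.003, still the lowest, and those of the other libraries ran from -3.65 to -2.72. Leaving that library out, the span of all 20 members over the other 5 libraries was 0.94. With library scaling set by the endothelial markers, the median G2/M log2 fold change was 0.019, beside -0.24 for all tested genes. The part of endothelial content in the G2/M levels was not tested.

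Markers of other cell types also differed among the libraries. The 13 rod photoreceptor markers made up 0.582%, 1.098% and 0.833% of the control counts and 0.848%, 0.592% and 0.756% of the Smad4-iECKO counts, with none at 0. Their share was above that of the endothelial markers in 5 of 6 libraries, and among the controls it was lowest where the endothelial and G2/M levels were highest. The 11 pericyte and smooth muscle markers took 0.289%, 0.0661% and 0.142% of counts in the controls and 0.115%, 0.201% and 0.163% in Smad4-iECKO, with none at 0, the same order among the controls as the G2/M genes. The 11 retinal progenitor markers ran the other way among the controls, with 0.0460%, 0.0965% and 0.0855% of counts, and took 0.0763%, 0.0880% and 0.0723% in Smad4-iECKO. Of their defining members Atoh7 was too low to be tested, and Fgf15 did not exceed 1.44 CPM in any library. The part of rods, pericytes and progenitors in the G2/M levels was not tested.

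**Figure D3:**
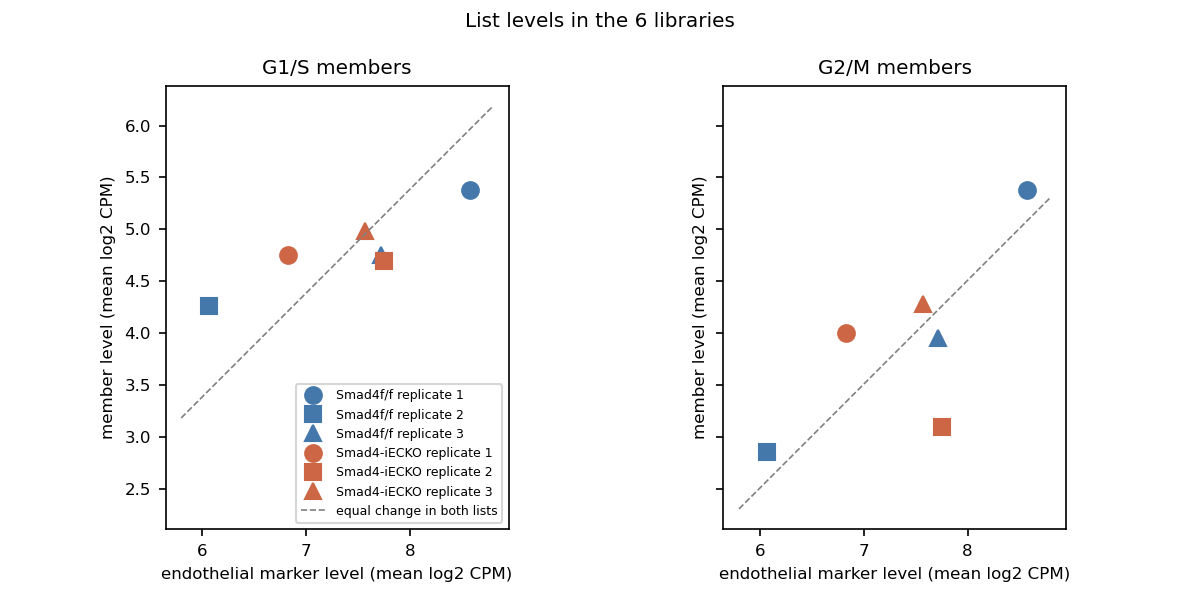
Mean log2 CPM of the G1/S members (left) and G2/M members (right) against the mean log2 CPM of the 18 endothelial markers, 1 symbol per library (blue Smad4f/f, orange Smad4-iECKO; circle, square and triangle for replicates 1, 2 and 3); on the dashed line both lists change equally. The G2/M level spans 2.52 and the G1/S level 1.116 log2 units, and Smad4-iECKO replicate 2 lies farthest below the line for G2/M.

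G1/S members varied less between libraries and not in one way. Their mean level was 5.38, 4.26 and 4.76 log2 CPM in Smad4f/f replicates 1, 2 and 3 and 4.76, 4.70 and 4.98 log2 CPM in Smad4-iECKO replicates 1, 2 and 3, with group means of 4.80 ± 0.56 and 4.81 ± 0.15 (SD, n = 3 each). Subtracting the endothelial level widened their span over all 6 libraries from 1.116 to 1.39 log2 units, below the 1.83 of G2/M on that scale. Without Smad4-iECKO replicate 2 it was also 1.39, above the 0.94 of G2/M. G2/M minus G1/S level was 0.0020, -1.40 and -0.80 in the controls and -0.75, -1.60 and -0.70 in Smad4-iECKO. The mean levels of both classes were thus nearly equal in Smad4f/f replicate 1 alone. They are not divided by gene length, so this does not mean equal abundance. Without Aurka and Nusap1 the value of Smad4-iECKO replicate 2 was -0.94, and the lowest was then Smad4f/f replicate 2 at -1.32. Smad4f/f replicate 1 was the highest library for 12 of 20 G1/S members (60.0%), beside 26.5% of all tested genes. Its ratio to Smad4f/f replicate 2 had a median of 2.17, beside 1.01 over all tested genes.

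The MCM genes encode the hexameric helicase that is loaded at origins and unwinds DNA in S phase. Mcm3 was at 42.3, 8.93 and 26.1 CPM in the controls and at 25.5, 68.3 and 25.3 CPM in Smad4-iECKO replicates 1, 2 and 3. Mcm5 was at 45.3, 10.7 and 21.9 CPM against 20.7, 17.7 and 27.7 CPM, and Mcm6 at 84.7, 24.2 and 45.2 CPM against 35.7, 80.4 and 51.2 CPM. Mcm2 and Mcm4 overlapped in the same manner, at 17.5 to 37.7 against 27.3 to 47.9 CPM and at 19.8 to 50.1 against 22.3 to 37.1 CPM. Mcm7, by contrast, held a narrow range of 49.0 to 78.6 against 55.4 to 74.8 CPM. The MCM median log2 fold change was 0.048, and 3 of 6 were above 0. Although the 6 subunits form 1 complex, Mcm2, Mcm3, Mcm6 and Mcm7 were at or near their highest in Smad4-iECKO replicate 2 while Mcm4 and Mcm5 were not. Their reads in that library ran from 38 for Mcm5 to 173 for Mcm6.

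The licensing factors Cdc6 and Cdt1 bring the helicase to origins. Cdc6 was at 10.8, 1.52 and 6.58 CPM in the controls and 3.50, 6.51 and 6.62 CPM in Smad4-iECKO. Cdt1 was at 14.04, 13.1 and 10.9 CPM against 9.33, 19.1 and 13.5 CPM. The ratio of Smad4f/f replicate 1 to replicate 2 was 7.09 for Cdc6 and 1.07 for Cdt1, the widest and among the narrowest of the G1/S members.

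Genes of the replication fork and of nucleotide supply were all highest in Smad4f/f replicate 1. Pcna, the sliding clamp, was at 81.4, 33.1 and 26.4 CPM in the controls and 37.5, 12.1 and 43.1 CPM in Smad4-iECKO. Rrm1 and Rrm2 encode the large and small subunits of ribonucleotide reductase. Rrm1 was at 92.7, 56.95 and 64.3 CPM against 66.04, 56.2 and 67.3 CPM, while the S-phase subunit gene Rrm2 was at 29.5, 5.64 and 12.6 CPM against 12.4, 2.32 and 14.4 CPM. Tyms, thymidylate synthase, was at 23.9, 10.9 and 11.7 CPM against 17.4, 16.3 and 13.7 CPM. Rrm2 had the lowest log2 fold change of the G1/S members, -0.64 ± 0.72 (standard error, edgeR, unadjusted p = 0.392), and its value in Smad4-iECKO replicate 2 came from 5 reads.

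By edgeR 0 of 20 G1/S members were called (smallest adjusted p 0.9999) and 1 of 20 had an unadjusted p under 0.05, beside 1.31% of all genes. DESeq2 likewise called 0 and had 1 at an unadjusted p under 0.05. Of the log2 fold changes, 8 were above and 12 below 0 (48.2% of all genes were above), with a median of -0.094 against -0.017 for all tested genes and standard errors from 0.29 to 0.72. The median became 0.21 with control replicate 1 left out and -0.22 with control replicate 2 left out. With prefix 38 alone 4 of 20 were above 0 (median -0.29), and in the prefix 40 pair 14 of 20 (median log2 ratio 0.55). Of all genes 51.1% were below 0 with prefix 38, and 47.5% were above 0 in the prefix 40 pair.

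**Figure D4:**
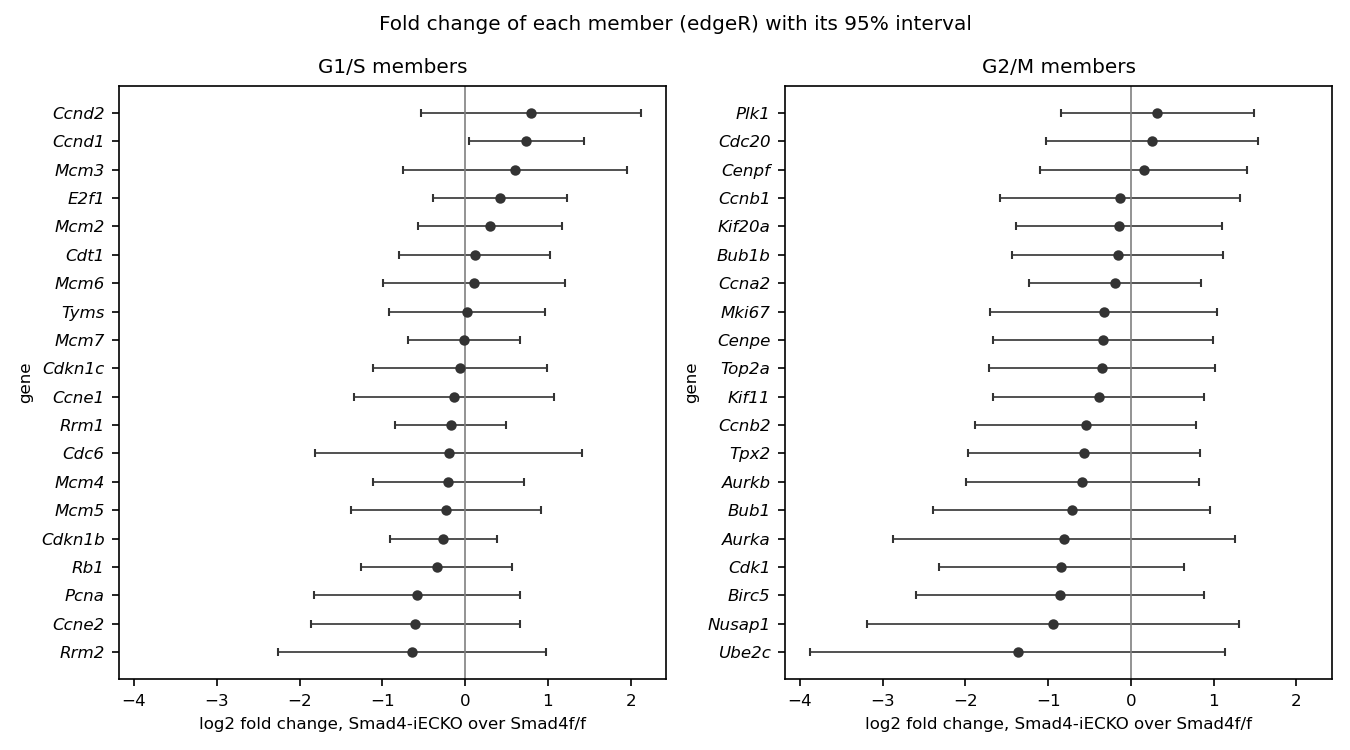
Log2 fold change of each member (Smad4-iECKO over Smad4f/f, horizontal axis) from edgeR, as a point with its 95% interval, for G1/S members (left) and G2/M members (right), ordered by value. Ccnd1, at 0.74, is the 1 member whose interval lies clear of 0, before adjustment for 14362 genes.

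Ccnd1 and E2f1, which act at the G1 to S step, were the 2 members whose groups did not overlap, both higher in every Smad4-iECKO library. Over all tested genes 5.31% did not overlap, 2.49% higher and 2.83% lower. A count of 2 of 40 members is near the share for both directions together. Ccnd1 encodes cyclin D1, the growth factor-responsive partner of CDK4 and CDK6 (chromosome 7, 144929931 to 144939925, minus strand, mm10). It was at 178.9, 117.5 and 174.5 CPM in the control replicates 1, 2 and 3. In Smad4-iECKO replicates 1, 2 and 3 it was at 205.4, 298.4 and 282.3 CPM. The group means of 156.9 ± 34.2 and 262.1 ± 49.7 CPM (SD, n = 3 each) differed 1.67-fold, or 0.74 ± 0.31 on the log2 scale (standard error, 95% interval 0.044 to 1.43, edgeR, unadjusted p = 0.0395, adjusted p = 0.9999). The unadjusted p ran from 0.0365 to 0.158 over the 6 fits that each lacked 1 library, and it was over 0.05 without Smad4f/f replicate 2 (0.158), Smad4f/f replicate 3 (0.0759), Smad4-iECKO replicate 2 (0.0575) or Smad4-iECKO replicate 3 (0.117). Its log2 fold change was 0.45 among the libraries with prefix 38, and the single pair with prefix 40 gave a log2 ratio of 1.34.

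E2f1 encodes an activator E2F (chromosome 2, 154559407 to 154569892, minus strand, mm10). It was at 9.94, 10.8 and 11.7 CPM in the controls and at 14.2, 16.7 and 12.8 CPM in Smad4-iECKO. The means of 10.8 ± 0.91 and 14.6 ± 1.98 CPM (SD, n = 3 each) differed by 0.42 ± 0.36 on the log2 scale (standard error, 95% interval -0.39 to 1.23, edgeR, unadjusted p = 0.272). E2f1 did not follow the control order of its target class, since Smad4f/f replicate 1 held 0.918 times the level of replicate 2. Both genes lost their separation when the endothelial marker level was subtracted. On that scale Ccnd1 was at -1.09, 0.81 and -0.27 log2 units in the controls and 0.86, 0.47 and 0.57 in Smad4-iECKO, and E2f1 also overlapped. Of the 40 members 0 were then without overlap in either direction, beside 2.15% of all genes higher and 0.689% lower, so that 0 is near the background. The endothelial level itself spanned 2.51 log2 units within the controls, wider than the log2 fold change of either gene. The loss of separation therefore does not show that Ccnd1 and E2f1 follow endothelial content.

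Mean levels of the microglia and astrocyte marker lists were higher in every Smad4-iECKO library, as Ccnd1 and E2f1 were. Singly, 6 of 14 microglia and 1 of 5 astrocyte markers were higher without overlap, beside 2.49% of all tested genes. With the endothelial level subtracted both lists overlapped. Microglia were then at -6.78 to -5.00 log2 units in the controls and -5.84 to -4.44 in Smad4-iECKO, and astrocytes at -4.65 to -2.88 and -3.61 to -2.08. The mean level of the 14 microglia markers was 1.79, 1.07 and 1.72 log2 CPM in the controls and 2.39, 1.91 and 2.57 log2 CPM in Smad4-iECKO, or 0.00404% to 0.00650% against 0.00927% to 0.0133% of counts. The microglia markers C1qa and P2ry12 had no read in Smad4-iECKO replicate 2. The 5 astrocyte markers were at 3.997, 3.19 and 3.07 against 4.28, 4.14 and 5.49 log2 CPM, while their summed shares of 0.0104% to 0.0400% and 0.0167% to 0.0688% of counts overlapped, with none at 0. The Mueller glia markers did not separate the groups (5.87 to 6.38 against 5.99 to 6.26 log2 CPM over 8 markers, none at 0). The part of these cell types in the levels of Ccnd1 and E2f1 was not tested.

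The other cyclins of G1 overlapped. Ccnd2, another D-type cyclin, was at 79.1, 18.6 and 73.2 CPM in the controls and 71.6, 54.4 and 169.5 CPM in Smad4-iECKO. Its log2 fold change of 0.80 ± 0.59 (standard error, edgeR, unadjusted p = 0.208) was the highest of the members. It was 0.15 without Smad4-iECKO replicate 3 and 0.38 without Smad4f/f replicate 2. With the title prefix as a block it was 0.95 (edgeR, unadjusted p = 0.0386), so that 2 of 20 G1/S members were then under an unadjusted p of 0.05. The cyclin E genes activate CDK2 at the start of S phase. Ccne1 was at 2.96 to 5.91 against 3.72 to 4.78 CPM and Ccne2 at 11.5 to 30.2 against 4.65 to 15.9 CPM.

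The brakes of the G1 to S step did not share the control order of the G2/M genes. Cdkn1b, the CDK inhibitor p27, was at 97.1, 96.0 and 73.1 CPM in the controls and 83.98, 58.6 and 78.5 CPM in Smad4-iECKO. Rb1, the retinoblastoma protein gene, was at 102.4, 131.8 and 110.9 CPM against 119, 40.4 and 110.7 CPM, with Smad4-iECKO replicate 2 far below the other libraries. Cdkn1c, the imprinted inhibitor p57, was at 43.1, 27.98 and 24.4 CPM against 19.7, 53.9 and 19.9 CPM. The ratio of Smad4f/f replicate 1 to replicate 2 was 1.01 for Cdkn1b, 0.777 for Rb1 and 1.54 for Cdkn1c, below every G2/M member. All 3 log2 fold changes lay below 0, from -0.34 for Rb1 to -0.059 for Cdkn1c, with the smallest unadjusted p at 0.379 (edgeR, Cdkn1b).

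Among the other CDK inhibitors, Cdkn1a, which encodes p21, stood out. It was at 15.8, 8.19 and 13.99 CPM in the controls and at 28.7, 79.95 and 49.99 CPM in Smad4-iECKO, without overlap, or 2.05 ± 0.45 on the log2 scale (standard error, edgeR, unadjusted p = 0.00139, adjusted p = 0.9999). Subtracting the endothelial level left it without overlap, at -4.58, -3.01 and -3.90 log2 units in the controls against -1.98, -1.43 and -1.92 in Smad4-iECKO. DESeq2 called it in the fit to all 6 libraries (adjusted p = 0.0248) and in 2 of 6 fits with a library left out. Its DESeq2 adjusted p became 0.205 or 0.641 with control replicate 2 or 3 left out, and 0.191 or 0.394 with Smad4-iECKO replicate 2 or 3 left out. The INK4 genes Cdkn2b, Cdkn2c and Cdkn2d, inhibitors of CDK4 and CDK6, had log2 fold changes of 0.31, -0.59 and 0.26 with overlapping groups, and Cdkn2a was too low to be tested.

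**Figure D5:**
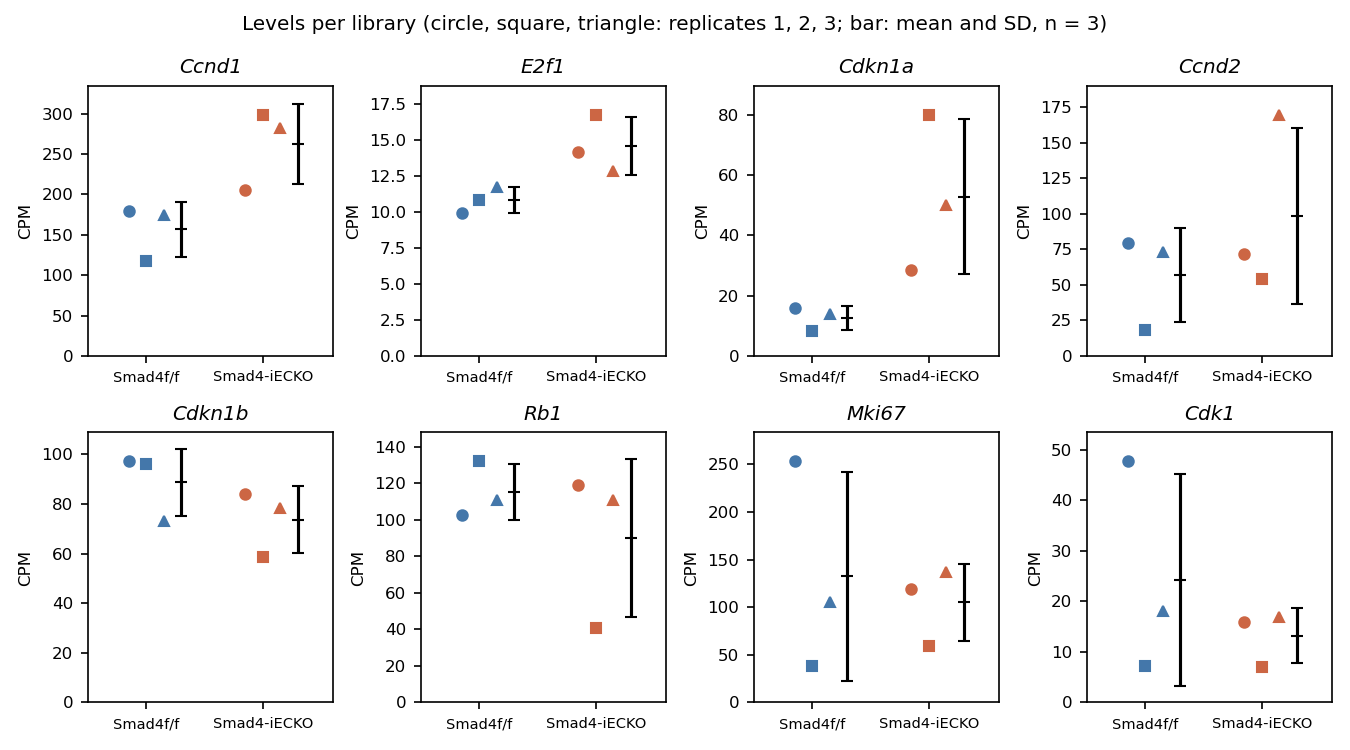
Levels in CPM (vertical axes, from 0) of Ccnd1, E2f1, Cdkn1a, Ccnd2, Cdkn1b, Rb1, Mki67 and Cdk1 in each library (blue Smad4f/f, orange Smad4-iECKO; circle, square and triangle for replicates 1, 2 and 3), with the mean and SD of each group in black. The groups of Ccnd1, E2f1 and Cdkn1a do not overlap, and Mki67 and Cdk1 spread most among the Smad4f/f libraries.

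Apart from the CDK inhibitors, wider lists of mitotic, licensing and G1 genes held no called gene. In these lists edgeR and DESeq2 each found 0 genes at an unadjusted p under 0.05. Of 48 further mitotic genes, 0 were called, 35 had log2 fold changes below 0 (median -0.29) and 36 were highest in Smad4f/f replicate 1. Over all tested genes 51.8% lay below 0 (median -0.017) and 26.5% were highest in that library. In the shallow Smad4-iECKO replicate 2, 9 of the 48 had no read. Among the mitotic genes the smallest unadjusted p values were those of Cks1b (-0.79) and Ncaph (-0.86), a CDK-binding subunit and a condensin subunit. Of 37 further licensing and replisome genes, 0 were called, 25 were below 0 (median -0.23) and 3 had no read in Smad4-iECKO replicate 2. Here the smallest unadjusted p values belonged to Orc6 (-0.63) of the origin recognition complex and the DNA ligase gene Lig1 (0.50, above 0). Of 22 further G1 regulators, 0 were called, 16 were below 0 (median -0.14) and 1 had no read in Smad4-iECKO replicate 2. The genes with the smallest unadjusted p values were both above 0: Cdk6 (0.51), a kinase partner of cyclin D1, and E2f4 (0.42), a repressor E2F.

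Between genes, levels can be compared per length. Divided by the summed exon length of GENCODE M21, Ccnd1 was the most abundant member, at 33.3 CPM per kb in Smad4f/f and 55.6 CPM per kb in Smad4-iECKO (mean of 3). It was followed over all 6 libraries by Cdkn1b (17.8), Rb1 (17.1), Pcna (16.2) and Cdkn1c (15.4 CPM per kb), whose order is closer than their spread over libraries. The least abundant were Ube2c (1.84), Ccne1 (1.65) and Cdc6 (1.13 CPM per kb). The median was 7.18 CPM per kb for G1/S and 3.75 CPM per kb for G2/M members. Alternative exons count in full in these lengths, so the values are approximate.

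For these genotypes the authors' deposited table called 2 of the 40 members at an adjusted p under 0.05, both higher and 0 lower, beside 13.4% of its 14225 genes with an adjusted p (7.70% higher and 5.69% lower). They were Ccnd1 (log2 fold change 0.72, standard error 0.13, adjusted p = 2.15e-06 in the authors' deposited table) and E2f1 (0.36, standard error 0.078, adjusted p = 0.000203 in the authors' deposited table). No G2/M member was called there. The count table holds each sample in 3 columns with identical values. DESeq2 with shrunken fold changes on all 18 columns came within 0.013 log2 units of the authors' deposited table for every member, and its standard errors within 0.0058. With each sample counted once, the DESeq2 standard error of Ccnd1 was 0.33 and that of E2f1 was 0.35.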

How the data were processed

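Per the file headers, the authors' files hold, for each gene, raw read counts in 18 columns for 6 samples, and 1 comparison with its mean normalized signal, log2 fold change, standard error, statistic (a score), p-value and adjusted p-value. The submitters' processing notes name STAR, DESeq2 and mm10. The sources used here do not state the read counter or annotation. The 3 columns of a sample were identical in all 24421 genes, and each sample was used once. Replicate numbers follow accession order and pair nothing.

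Counts were tested with edgeR 4.0.16 (quasi-likelihood F-test, TMM scaling, filterByExpr with minimum count 10 and minimum total 15, Benjamini-Hochberg adjusted p under 0.05) in R 4.3.3. The standard error was the size of the log2 fold change divided by the square root of F. Alternatives were limma 3.58.1 (voom), DESeq2 1.42.0, other scalings, no filter, the title prefix as a block, prefix 38 alone, thinning and each library left out. DESeq2 on all 18 columns was added after seeing the data. List levels are means of log2 CPM with a prior count of 2. The tests were tried on simulated data. Figures used matplotlib 3.10.9. Members and lists were chosen with earlier results of these data known. All members were named, with the CDK inhibitors and the 2 genes of smallest p in each wider list. Knl1 and Sgo1 were matched by a synonym.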

Additional observations from a re-analysis of the deposited data

How the results depend on the processing

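Replicate numbers follow accession order and were not used as a block; the title prefix was used as one instead. Under the alternatives tried, 0 G2/M members were called, and 0 G1/S members except 2 (Ccnd1 and E2f1) with DESeq2 on all 18 columns, where each sample enters 3 times. The G2/M median log2 fold change ran from -0.79 to 0.50 and the G1/S median from -0.22 to 0.21 when 1 library was left out. The medians were 0.33 (G2/M) and 0.12 (G1/S) with limma-voom quality weights, which gave Smad4f/f replicate 1 and Smad4-iECKO replicate 2 weights of 0.347 and 0.251, and -0.21 and -0.061 with the title prefix as a block. Of 359 single-gene values, 52 changed sign, in 36 genes, and the cause was not tested. With limma-voom these were Mcm4 0.12, Mcm5 0.29, Mcm7 0.068, Pcna 0.33, Rrm1 0.038, Rrm2 0.28, Cdc6 0.087, Cdt1 -0.11, Ccne1 0.068, Ccne2 0.18, Cdkn1b 0.012, Mki67 0.45, Top2a 0.40, Ccnb1 0.63, Ccnb2 0.076, Cdk1 0.11, Bub1 0.43, Bub1b 0.51, Aurka 0.28, Aurkb 0.0023, Cenpe 0.53, Kif11 0.22, Kif20a 0.32, Tpx2 0.25, Birc5 0.34, Ube2c 1.04, Nusap1 0.24 and Ccna2 0.42. With scaling to the endothelial markers they were Mcm5 0.11, Cdc6 0.22, Cdt1 -0.23, Mki67 0.23, Top2a 0.18, Ccnb1 0.25, Bub1b 0.36, Cenpe 0.13, Kif20a 0.22 and Ccna2 0.065. The prefix block gave Cdc6 0.042, Ccnb1 0.0047 and Kif20a 0.024, prefix 38 alone Mcm2 -0.22, Mcm3 -0.45, Mcm6 -0.60, Tyms -0.21, Cdt1 -0.15, Rb1 0.093, Plk1 -0.22, Cenpf -0.46 and Cdc20 -0.66, and thinning to the smallest library Mcm7 0.22 and Ccnb1 0.015. Leaving out 1 library changed the sign of 34 genes, whose log2 fold changes ran as follows: Mcm3 -0.040 to 1.15, Mcm4 -0.48 to 0.20, Mcm5 -0.60 to 0.44, Mcm6 -0.26 to 0.67, Mcm7 -0.18 to 0.17, Pcna -0.88 to 0.075, Rrm1 -0.31 to 0.057, Rrm2 -1.05 to 0.16, Tyms -0.18 to 0.47, Cdc6 -0.67 to 0.44, Cdt1 -0.18 to 0.34, Ccne1 -0.37 to 0.088, Ccne2 -0.89 to 0.0029, Cdkn1c -0.71 to 0.21, Mki67 -0.77 to 0.54, Top2a -0.79 to 0.71, Ccnb1 -0.52 to 0.98, Ccnb2 -0.96 to 0.21, Cdk1 -1.28 to 0.11, Bub1 -1.18 to 0.51, Bub1b -0.58 to 0.49, Aurka -1.16 to 0.064, Aurkb -1.002 to 0.19, Plk1 -0.027 to 0.68, Cenpe -0.75 to 0.68, Cenpf -0.26 to 1.03, Kif11 -0.79 to 0.45, Kif20a -0.55 to 0.51, Tpx2 -1.01 to 0.27, Birc5 -1.29 to 0.30, Cdc20 -0.28 to 0.80, Ube2c -1.91 to 1.22, Nusap1 -1.46 to 0.12 and Ccna2 -0.50 to 0.45. The shallow Smad4-iECKO replicate 2 limits every low member, since 1 of its reads is 0.465 CPM.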
